A study of Mus musculus with 19 samples.

Results

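The genes described here are 47 ribosome biogenesis factors, the proteins that make, fold, modify and cut ribosomal RNA and join it to ribosomal proteins. They were measured by RNA-sequencing of CD11b+ brain cells, and all 47 were found among the 56980 genes of the count table and passed the filter on low counts, as did 18739 genes in all. The list was chosen by name with earlier results of these same libraries known, in which such genes were higher after LPS, so their LPS values are given as a description. The cells came from male *PARK7*/DJ-1 KO mice and their wildtype littermates, 3 to 4 months old, killed 6 h after an intraperitoneal injection of LPS (*E. coli* O55:B5, 4 μg/g body weight) or of saline vehicle, the group labelled PBS. LPS is a bacterial cell wall component that sets off inflammation, and *Park7* encodes DJ-1, whose loss causes a familial form of Parkinson's disease. The KO line carries a gene trap (B6;129P2-*Park7* Gt(XE726) Byg/Mmucd), a constitutive insertion that is not limited to microglia, and had been backcrossed to C57BL/6NCrl. There were 5 KO LPS, 5 KO PBS, 5 wildtype LPS and 4 wildtype PBS libraries, each taken as 1 mouse from the separate numbers in the labels.

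Ribosome assembly starts in the nucleolus, where RNA polymerase I transcribes a long precursor of the ribosomal RNAs. Small nucleolar RNAs (snoRNAs) with their protein partners guide the methylation and pseudouridylation of this precursor, the small subunit processome folds and cleaves the part that becomes the 40S subunit, and further factors build the 60S subunit. MYC, which binds the E-box sequence CACGTG, is a known activator of many of these genes, and macrophages and other immune cells are known to adjust ribosome production when they are stimulated.

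Library totals ranged from 11936364 to 22788884 counts, so that 3 counts, taken as the smallest signal a library can show, correspond to 0.139 to 0.256 CPM (counts scaled to a common library total after TMM normalization). Reads are not independent molecules, and this limit covers counting error only. *Park7* itself had 262 to 533 counts in wildtype and 9 to 90 counts in KO libraries. Of 9 microglia markers measured, 8 were lower after LPS in both genotypes, and *Itgam*, which encodes CD11b, had a log2FC of 0.25 ± 0.20 in wildtype mice. The markers of neutrophils and monocytes were higher after LPS for 10 of 14 genes in each genotype, *Plac8* and *Ly6c2* with the largest log2FC in wildtype. Their summed level was 110.2 to 182 CPM in wildtype PBS, 466 to 878 in wildtype LPS, 60.7 to 313 in KO PBS and 253 to 834 in KO LPS libraries. Of the other cell types in wildtype mice, none of 7 oligodendrocyte markers was called, 1 of 7 astrocyte and 1 of 7 neuron markers were called higher, 3 of 7 endothelial and 3 of 7 border macrophage markers lower, and of 5 tested lymphocyte markers 2 were higher and 1 lower. KO mice had the same counts, except that 1 endothelial and 1 border macrophage marker were also called higher. In KO mice 6 of 7 oligodendrocyte (median log2FC of 0.35), 6 of 7 astrocyte (0.49) and 6 of 7 neuron markers (0.51) were above 0. In wildtype mice 1 (-0.28), 4 (0.05) and 4 (0.20) were. The neutrophil and monocyte markers moved with LPS, as the genes below did, and their part in those values was not tested.

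All 47 genes were higher 6 h after LPS in both genotypes by the call used here, which asks for an adjusted p-value under 0.05 with a log2FC no smaller than 0.5 in edgeR's quasi-likelihood test. Among all genes tested, 18.4% were called higher and 17.4% lower in wildtype, and 20.1% higher and 19% lower in KO mice. No member was called lower. The median log2FC of the 47 genes was 1.75 in wildtype mice (from 0.73 for *Imp3* to 2.83 for *Rrs1*) and 1.89 in KO mice (from 0.52 for *Imp3* to 2.84 for *Rrs1*), beside a median over all genes of -0.06 and -0.01. In wildtype mice every LPS library was above every PBS library for 47 of 47 genes, which held for 20.8% of all genes, and in KO mice this held for 46 of 47, against 16.2% of all genes. *Imp3* was the gene whose KO groups overlapped. Summed over the 47 genes, the level was 1569 to 1952 CPM in wildtype PBS and 5419 to 6552 CPM in wildtype LPS libraries, and 1636 to 1938 CPM in KO PBS and 5089 to 8229 CPM in KO LPS libraries. In sorted bulk cells, a change in the cells collected and a change in RNA per cell cannot be told apart.

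**Figure D1:**
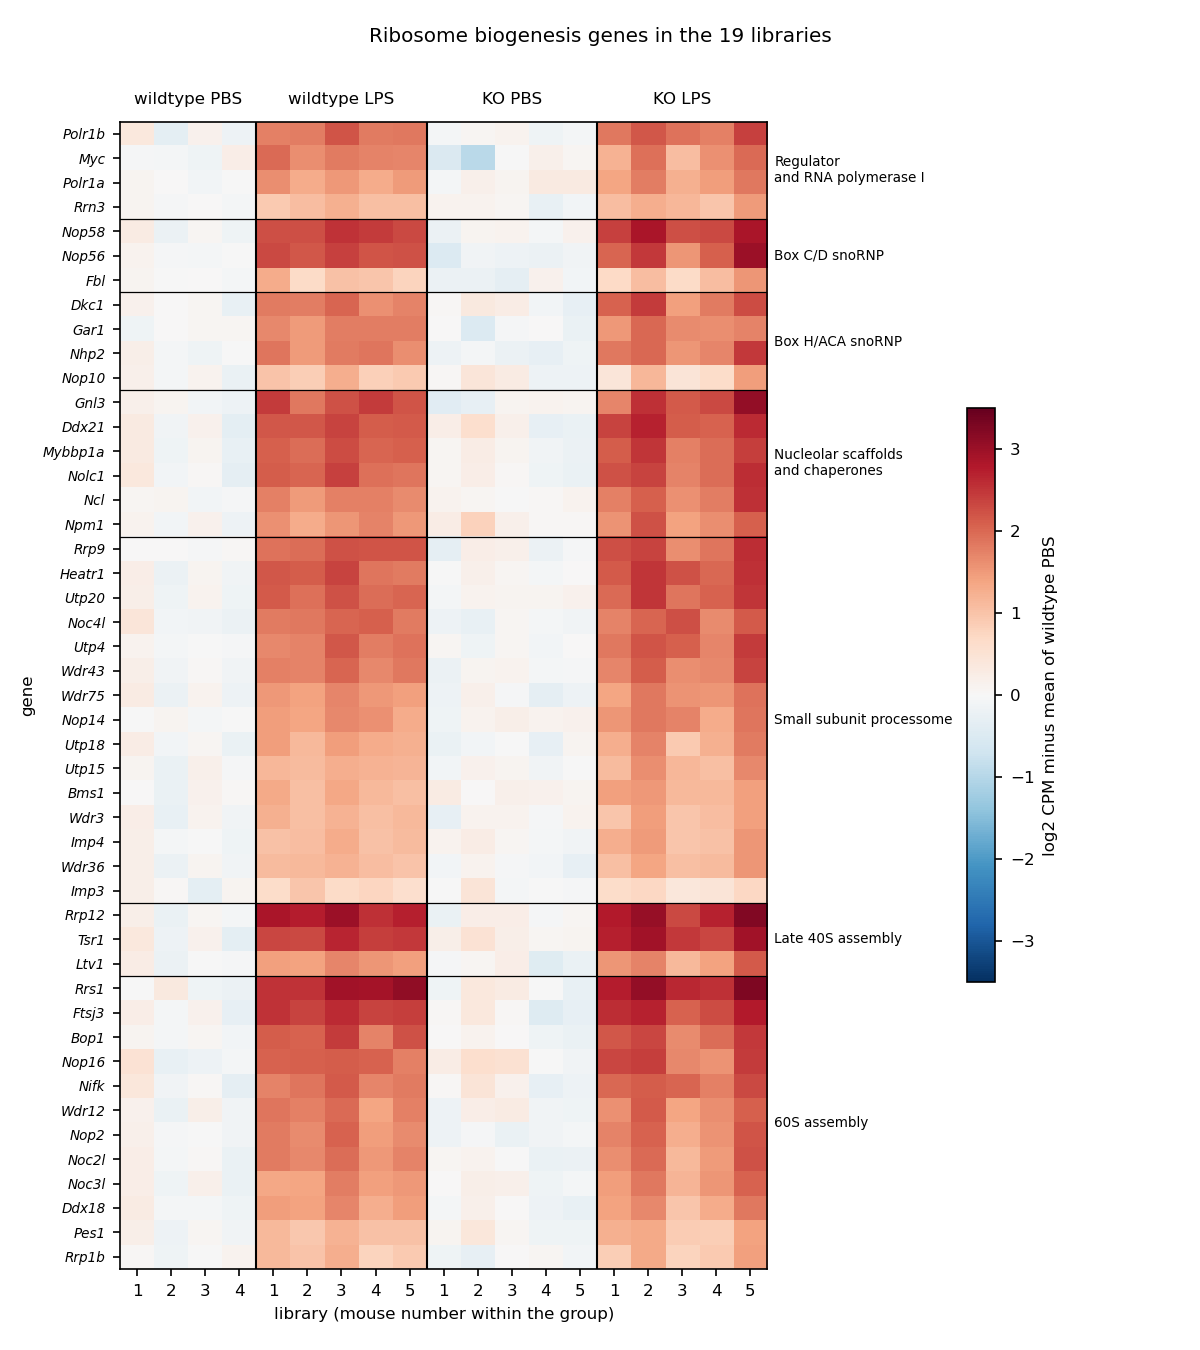
Log2 CPM of the 47 genes (rows, grouped by role and sorted by the wildtype log2FC after LPS) in the 19 libraries (columns), minus the mean of the 4 wildtype PBS libraries, with red for higher and blue for lower. The LPS columns are red in every row in both genotypes, KO LPS mice 2 and 5 are the darkest of the KO LPS columns, and *Imp3* is the palest row.

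The promoters were searched for the E-box because MYC is one of the 47 genes. The windows are those of RefSeq, 250 bases before to 50 bases after each transcript start, and 40 of the 47 genes matched. Not matched were *Myc*, *Fbl*, *Npm1*, *Rrs1*, *Rrp12*, *Bop1* and *Wdr36*. CACGTG, which reads the same on both strands, was present in the windows of 11 of the 40 genes (27.5%), compared with 11.1% of the tested genes and 8.09% of the 27025 genes with a RefSeq window. The looser E-box core CANNTG, which includes every CACGTG, was found for 65% of the 40 genes, 68.2% of the tested genes and 75% of all genes with a window, and CACGCG, read on both strands, for 25%, 18.8% and 10.5%. A match is a description of the letters and says nothing of binding. The stretches around each CACGTG are given below to show how the flanking bases differ, with the E-box in capitals, 5′ to 3′ on the strand of the gene. RefSeq's table is on GRCm38.p6, and each window was found by exact match in GRCm39, whose coordinates are given.
*Imp4* (chr1:34478777-34478806, forward strand): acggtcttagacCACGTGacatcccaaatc
*Nop2* (chr6:125108774-125108803, forward strand): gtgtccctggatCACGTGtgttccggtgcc
*Utp4* (chr8:107620275-107620304, forward strand): tgcgcaagcgcgCACGTGgggccggggcgg
*Ltv1* (chr10:13068836-13068865, reverse strand): gccctgtggaccCACGTGtggagctgccgg
*Utp20* (chr10:88662627-88662651, reverse strand): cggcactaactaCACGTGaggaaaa
*Pes1* (chr11:3913965-3913994, forward strand): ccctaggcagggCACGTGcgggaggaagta
*Mybbp1a* (chr11:72332181-72332202, forward strand): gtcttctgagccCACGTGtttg
*Tsr1* (chr11:74788918-74788947, forward strand): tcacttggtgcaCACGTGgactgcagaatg
*Utp18* (chr11:93776595-93776624, reverse strand): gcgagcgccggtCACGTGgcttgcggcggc
*Rrn3*, distal (chr16:13598336-13598365, forward strand): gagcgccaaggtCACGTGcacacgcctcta
*Rrn3*, proximal (chr16:13598503-13598532, forward strand): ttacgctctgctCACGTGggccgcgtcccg
*Wdr43* (chr17:71923215-71923244, forward strand): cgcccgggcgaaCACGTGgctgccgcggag
*Rrn3* held 2 copies and the other 10 genes 1 each. Counting the RefSeq transcript start as 1, the first base of the motif lay between 3 and 41 in *Pes1*, *Utp4*, *Wdr43*, *Tsr1*, *Ltv1*, *Utp20* and *Mybbp1a*. It lay upstream of that start, from -215 to -20, in *Rrn3*, *Imp4*, *Nop2* and *Utp18*. GENCODE, the source of the gene coordinates given below, can start earlier. It did so by 187 bases for *Rrn3*, 342 for *Imp4*, 386 for *Utp18* and 912 for *Tsr1*. The proximal *Rrn3* stretch thus lies inside the gene span printed below. The 11 genes were spread over the range of LPS changes, from *Pes1* and *Rrn3* (log2FC of 1.07 each in wildtype) to *Tsr1* (2.43).

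The transcription factor *Myc* (chr15:61857227-61862223 on GRCm39) had 37.8, 37.1, 34.9 and 45.1 CPM in the wildtype PBS and 152, 119, 136, 129 and 127 CPM in the wildtype LPS libraries. In KO mice it had 27.3, 19.8, 38.5, 44 and 40.5 CPM after PBS and 89.8, 146, 81.5, 117 and 153 CPM after LPS. The groups did not overlap in either genotype, KO PBS mouse 2 was the lowest of the 19 libraries, and the log2FC was 1.77 ± 0.22 (SE) in wildtype and 1.79 ± 0.20 in KO mice. *Polr1b* (chr2:128942903-128970214), a catalytic core subunit of RNA polymerase I, had 33.4, 20.1, 28.3 and 22.7 CPM after PBS and 87.7, 89.2, 117, 90.2 and 92.2 CPM after LPS in wildtype mice. Its KO values were 24.4, 26.8, 27.9, 23 and 24.6 CPM and 92, 116, 95.3, 87.2 and 135 CPM. With a log2FC of 1.87 ± 0.16 and 2.05 ± 0.15, its values were larger than those of *Polr1a*, the other core subunit (1.45 ± 0.13 and 1.4 ± 0.12), a difference between genes that was not tested. *Rrn3* (chr16:13598376-13635974), which brings the polymerase to its promoter, had 55.4, 50.9, 52.9 and 49.5 CPM after PBS and 98.6, 109.6, 123, 107.8 and 108.5 CPM after LPS in wildtype mice. In the KO it had 57, 57, 54.8, 43.5 and 49.2 CPM and 111, 127, 117, 101 and 146 CPM. Every LPS value was above every PBS value, and the log2FC was 1.07 ± 0.11 and 1.2 ± 0.10, the smallest of these 4 genes.

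The box C/D snoRNPs methylate ribosomal RNA. *Nop58* (chr1:59724106-59758203), a core scaffold protein of these particles, had 28.4, 20.4, 24.5 and 20.8 CPM in wildtype PBS and 111, 112, 134, 128 and 116 CPM in wildtype LPS mice. After PBS the KO mice had 20.1, 25.1, 25.2, 22.1 and 25.8 CPM and after LPS 123, 169.6, 111, 115 and 170.5 CPM. The LPS groups stood far from the PBS groups, with a log2FC of 2.35 ± 0.15 in wildtype and 2.54 ± 0.14 in KO mice. *Nop56*, its partner, was alike with 2.27 ± 0.21 and 2.53 ± 0.19. *Fbl* (chr7:27868353-27878701) encodes fibrillarin, the methyltransferase of the particle, and had 25.2, 23.2, 23.6 and 22.3 CPM after PBS and 58.1, 37.3, 47.8, 46.1 and 40.3 CPM after LPS in wildtype mice. Its KO values were 20.3, 20.2, 18.9, 26.4 and 22.2 CPM and 38.5, 49.95, 37.4, 49.9 and 68.5 CPM. Its log2FC of 0.96 ± 0.17 and 1.18 ± 0.16 was the smallest of the 3 genes, and its groups did not overlap.

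Box H/ACA snoRNPs convert uridine to pseudouridine. *Dkc1* (chrX:74139460-74155456), their pseudouridine synthase dyskerin, had 18.8, 17, 17.7 and 14 CPM after PBS and 58.9, 57.9, 68.6, 51 and 56.4 CPM after LPS in wildtype mice. KO mice had 17.2, 21.3, 19.97, 15.7 and 13.7 CPM and 69.9, 91.4, 45.7, 59 and 82.7 CPM. Its log2FC was 1.8 ± 0.18 and 1.99 ± 0.17, close to those of the partner proteins *Gar1* (1.75 ± 0.16 and 1.89 ± 0.15) and *Nhp2* (1.75 ± 0.17 and 2.14 ± 0.16). *Nop10* (chr2:112092271-112093764), the smallest core protein, had 8.55, 7.21, 8.28 and 6.4 CPM after PBS and 15.2, 13.8, 18.2, 13.5 and 14.4 CPM after LPS in wildtype mice. In KO mice the values were 7.73, 10.1, 9.3, 6.65 and 6.7 CPM and 10.2, 17.2, 10.3, 11.9 and 20.9 CPM. The 2 KO groups nearly touched, at 10.1 and 10.2 CPM, and the log2FC was 0.98 ± 0.22 and 0.80 ± 0.20.

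Among nucleolar scaffolds and chaperones, the nucleostemin gene *Gnl3* (chr14:30734389-30741364), a nucleolar GTPase, had 34, 32.6, 28.2 and 26.9 CPM in wildtype PBS and 167, 108.4, 143, 165 and 139 CPM in wildtype LPS mice. Its KO levels were 23.1, 24.9, 32.2, 33 and 32.1 CPM after PBS and 99.4, 177, 135, 150.4 and 258 CPM after LPS. KO LPS mouse 5 was the highest and mouse 1 the lowest of its group and the log2FC was 2.25 ± 0.22 and 2.49 ± 0.20. *Npm1* (chr11:33100281-33113267), which encodes nucleophosmin, had 95.7, 81.6, 96.4 and 77.7 CPM after PBS and 264, 216, 257, 292 and 249.8 CPM after LPS in wildtype mice. KO mice had 104, 152, 99.3, 89.3 and 89.9 CPM and 260.1, 412, 233, 269 and 376 CPM. It had the smallest change of the 6 genes (1.54 ± 0.18 and 1.53 ± 0.17). In between in wildtype mice were the RNA helicase *Ddx21* (2.18 ± 0.19 and 2.27 ± 0.17), *Mybbp1a* (2.09 ± 0.16 and 2.16 ± 0.15), the snoRNP chaperone *Nolc1* (2.07 ± 0.18 and 2.2 ± 0.17) and nucleolin, *Ncl* (1.69 ± 0.15 and 1.93 ± 0.14).

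The small subunit processome is the largest of the 7 roles, with 15 genes. *Rrp9* (chr9:106353162-106362623), a protein of the U3 snoRNP at its centre, had 8.86, 8.85, 8.47 and 9 CPM after PBS and 33.2, 34.5, 41.4, 40.5 and 40.8 CPM after LPS in wildtype mice. It had 7, 10.4, 10.01, 7.59 and 8.54 CPM and 42.3, 45.8, 27.4, 32.3 and 53.3 CPM in KO mice. The log2FC was 2.11 ± 0.18 and 2.2 ± 0.16, with no overlap between groups. *Imp3* (chr9:56844722-56850236), which joins U3 to the precursor, had 12.4, 10.9, 8.34 and 11.4 CPM after PBS and 16.7, 21.2, 17, 17.9 and 16.1 CPM after LPS in wildtype mice. KO values were 10.6, 14.7, 10.2, 10.5 and 10.4 CPM after PBS and 16.8, 17.7, 14.1, 14.6 and 17.8 CPM after LPS. KO PBS mouse 2, at 14.7 CPM, stood above KO LPS mice 3 and 4, and the log2FC of 0.73 ± 0.15 in wildtype and 0.52 ± 0.14 in KO mice was the smallest of all 47 genes, with the KO value at the edge of the fold threshold. Its partner *Imp4* had 1.11 ± 0.13 and 1.22 ± 0.12. The subunits that bind the nascent precursor first were *Heatr1* (2.07 ± 0.14 and 2.26 ± 0.13), *Utp4* (1.87 ± 0.14 and 2.1 ± 0.13), *Wdr43* (1.82 ± 0.14 and 1.95 ± 0.13), *Wdr75* (1.5 ± 0.14 and 1.77 ± 0.13) and *Utp15* (1.19 ± 0.13 and 1.35 ± 0.12). The UTP-B subunits *Utp18* (1.32 ± 0.16 and 1.54 ± 0.15), *Wdr3* (1.13 ± 0.13 and 1.19 ± 0.12) and *Wdr36* (1.09 ± 0.12 and 1.32 ± 0.11) had smaller values than *Heatr1*, *Utp4* and *Wdr43*. *Utp15* lay below *Utp18* in both genotypes, so the sets overlapped, and differences between genes were not tested. Other members were *Utp20* (2.06 ± 0.14 and 2.13 ± 0.12), the paired factors *Noc4l* (1.91 ± 0.16 and 2.1 ± 0.14) and *Nop14* (1.5 ± 0.12 and 1.58 ± 0.12), and the GTPase *Bms1* (1.19 ± 0.12 and 1.2 ± 0.11). The median over the 15 genes was 1.5 in wildtype and 1.58 in KO mice.

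Of the 3 late 40S factors, *Rrp12* (chr19:41847867-41884649), which takes part in the export of the new subunits, had 17.9, 13.1, 16.2 and 14.7 CPM after PBS and 112, 103, 123, 91.5 and 101 CPM after LPS in wildtype mice. In KO mice it had 13, 18.1, 18, 14.8 and 16 CPM and 105, 128, 77, 99.1 and 145 CPM. The LPS libraries stood far above the PBS libraries, and the log2FC was 2.78 ± 0.17 and 2.79 ± 0.16. *Tsr1*, which holds the immature 40S particle inactive, had 2.43 ± 0.16 and 2.48 ± 0.15. *Ltv1* (chr10:13053880-13068939), another factor of the immature 40S particle, had 13.7, 9.76, 11.3 and 11 CPM and 31, 30.2, 37.3, 33.4 and 31.1 CPM in wildtype mice after PBS and LPS. Its KO values were 10.9, 12, 13.3, 8.43 and 9.72 CPM and 33.5, 38.1, 25.2, 30.04 and 50.2 CPM. The change of 1.51 ± 0.18 and 1.7 ± 0.17 was the smallest of the 3.

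For the 60S subunit, *Rrs1* (chr1:9615633-9617680), which helps to place the 5S ribosomal RNA, had 5.94, 7.58, 5.39 and 5.15 CPM after PBS and 35.1, 34.9, 46.5, 45.6 and 51.8 CPM after LPS in wildtype mice. KO mice had 5.34, 7.71, 7.21, 5.87 and 4.92 CPM and 40.9, 50.9, 37.7, 35.3 and 58.1 CPM. It had the largest log2FC of the 47 genes in both genotypes, 2.83 ± 0.20 and 2.84 ± 0.18. *Rrp1b* (chr17:32255073-32282540), a nucleolar protein of pre-60S particles, had 40.1, 34.6, 38.4 and 41.9 CPM after PBS and 84.9, 77.5, 93.9, 66.9 and 72.6 CPM after LPS in wildtype mice. The KO values were 34.7, 31.6, 39, 40.4 and 36 CPM and 70.1, 96.7, 65.8, 73.3 and 105 CPM. Its log2FC was 1.03 ± 0.14 and 1.18 ± 0.13, with no overlap between groups. The PeBoW complex, needed to process the 60S precursor, has *Bop1* (2.14 ± 0.16 and 2.2 ± 0.15), *Wdr12* (1.76 ± 0.18 and 1.78 ± 0.16) and *Pes1* (1.07 ± 0.14 and 1.1 ± 0.13) as its subunits. The ribosomal RNA methyltransferases *Ftsj3* (2.46 ± 0.18 and 2.54 ± 0.16) and *Nop2* (1.74 ± 0.16 and 1.94 ± 0.15) were higher too, as were *Nop16* (2.02 ± 0.23 and 1.87 ± 0.21), the Ki-67 partner *Nifk* (1.85 ± 0.17 and 2.02 ± 0.16), *Noc2l* (1.74 ± 0.18 and 1.78 ± 0.16), *Noc3l* (1.5 ± 0.16 and 1.62 ± 0.15) and the helicase *Ddx18* (1.46 ± 0.16 and 1.53 ± 0.15). The median of the 12 genes was 1.75 in wildtype and 1.83 in KO mice.

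**Figure D2:**
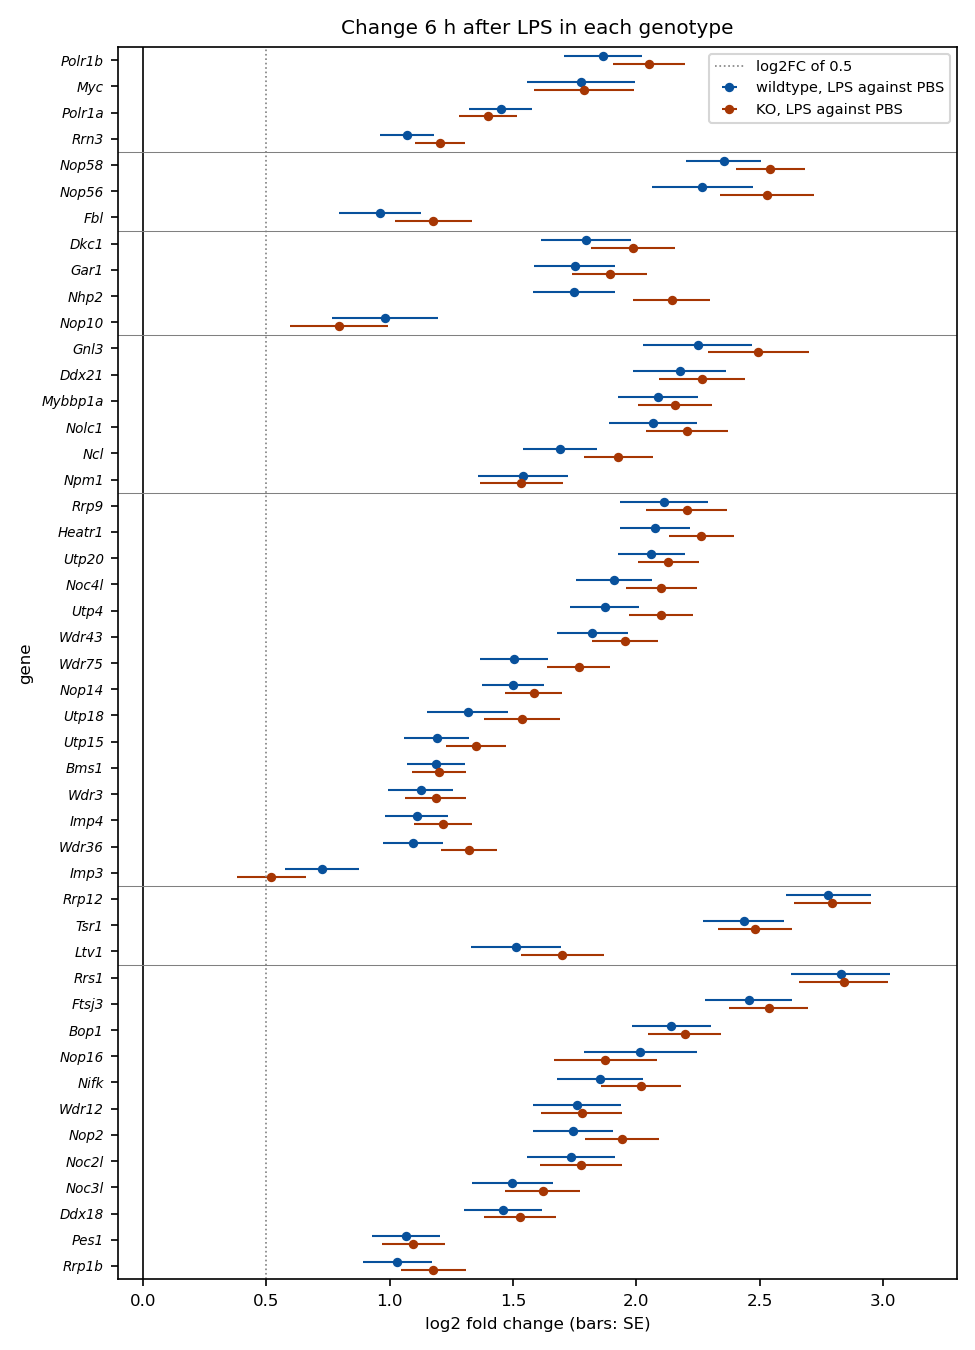
Log2 fold change of LPS against PBS (x axis, bars show the SE from the edgeR fit) for each of the 47 genes (y axis) in wildtype (blue, n = 5 against 4) and KO mice (red, n = 5 against 5), with roles separated by lines. *Rrp12* and *Rrs1* lie furthest right at 2.78 and 2.83 in wildtype mice, and *Imp3* lies nearest to the dotted threshold of 0.5.

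**Figure D3:**
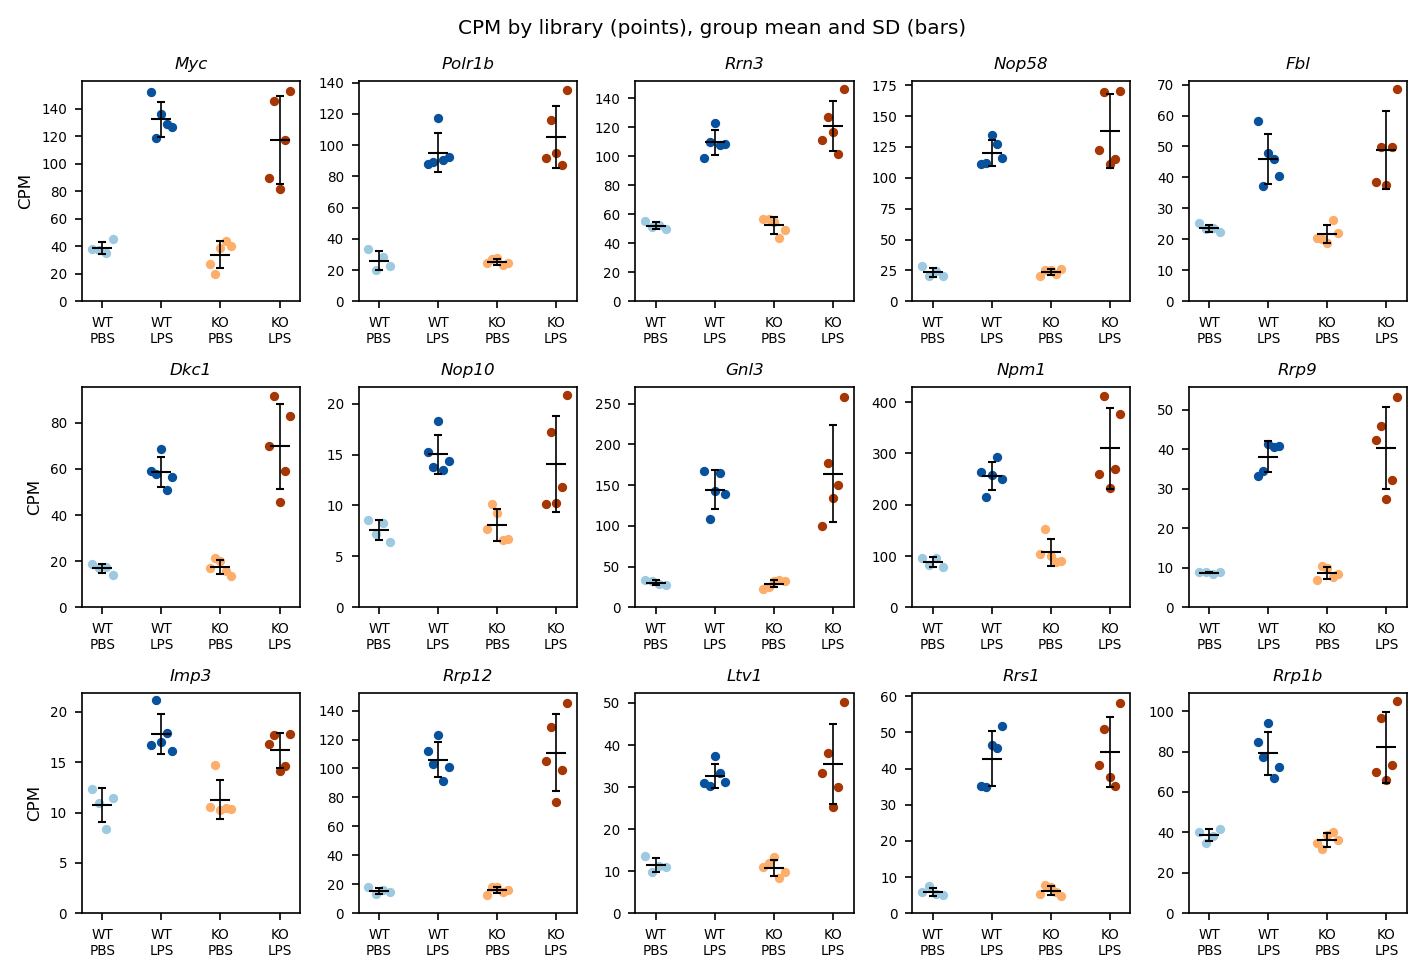
CPM (y axis, linear from 0) of *Myc* and of the gene with the largest and the smallest wildtype log2FC in each role, with 1 point per library and a bar for the group mean and SD (x axis: WT is wildtype, n = 4 for PBS and 5 for each other group). LPS points lie above the PBS points in each panel, except in *Imp3*, where 1 KO PBS library at 14.7 CPM lies among the KO LPS libraries.

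Levels were compared between genes only after division by the length of the annotated exons, as CPM per kb. At baseline in wildtype mice the highest of the 47 genes were *Mybbp1a* (19.3 ± 3.43 CPM per kb, SD, n = 4), *Ncl* (16.3 ± 1.04), *Noc2l* (15.7 ± 2.16), *Npm1* (15.5 ± 1.7) and *Myc* (14.2 ± 1.62). Each step between neighbours in this order was smaller than the larger of their SDs. *Wdr12* (1.36 ± 0.201), *Gar1* (1.51 ± 0.113) and *Nop58* (1.81 ± 0.288) were the lowest 3. The length joins all annotated exons of a gene, whether or not these cells use them. *Nop58* (12954 bases) and *Wdr12* (12766 bases) had the longest of the 47 genes, while *Gar1* had 1980 bases. The part of this length in their low rank was not tested. After LPS, *Mybbp1a* stood at 81.9 ± 7.28 CPM per kb and *Ddx21* at 62.5 ± 4.41, followed by *Ncl* at 52.7 ± 4.09 and *Noc2l* at 52.3 ± 5.88 in wildtype mice, while *Wdr12* (4.61 ± 0.681) and *Gar1* (5.08 ± 0.441) again stood lowest.

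KO and wildtype mice were then compared, a difference for which these genes had not been picked. After LPS, no member passed the study's thresholds for this comparison, set at an unadjusted p-value under 0.05 together with a |log2FC| no smaller than 0.5, which 1.31% of all genes did. The largest positive difference was that of *Ncl*, with 573, 474, 568, 567 and 526 CPM in wildtype and 564, 711, 512, 575 and 977 CPM in KO LPS libraries. KO LPS mouse 5 was the highest of the 10 libraries and the groups overlapped, with a log2FC of 0.30 ± 0.14 (edgeR adjusted p = 1). *Ncl* was the one member with an unadjusted p-value under 0.05, in edgeR and in DESeq2, beside 2.57% of all genes in edgeR, so that 1 of 47 was near the background. This count moved with single mice and with the processing. It was 5 without KO LPS mouse 4 (*Ncl*, *Nop14*, *Utp4*, *Tsr1* and *Heatr1*), 4 without wildtype LPS mouse 3 (*Ncl*, *Utp4*, *Tsr1* and *Heatr1*) and 3 without KO LPS mouse 3 (*Ncl*, *Dkc1* and *Npm1*). It was 0 without KO LPS mouse 2 or 5, without wildtype LPS mouse 2 or 5, with the replicate block, with the library number as a covariate, with no filter on low counts, with library totals in place of TMM and with the 2 groups fitted alone. The other end was *Myc*, at -0.17 ± 0.20, with overlapping groups. Of the 47 log2FC values, 43 were above 0 with a median of 0.117, beside 53.3% above 0 and a median of 0.0159 over all genes, and the SE of a single gene was 0.101 to 0.202. Without KO LPS mouse 5, 27 of 47 were above 0 and the median was 0.0158, beside -0.000856 over all genes. With library totals in place of TMM, 31 were above 0 and the median was 0.0516, but the median over all genes fell too, to -0.0404. The median was 0.0603 without KO LPS mouse 2 and 0.188 without KO LPS mouse 3. In the same comparison 12 of 14 neutrophil and monocyte markers were below 0, with a median log2FC of -0.28 and none called, as were all 5 tested lymphocyte markers, of which *Ncr1* was called lower (-1.63 ± 0.68, edgeR adjusted p = 1), and all 7 endothelial markers (median of -0.12, none called). Above 0 were 6 of 7 neuron markers (median of 0.36) and 6 of 7 astrocyte markers (0.10), none called. The microglia, oligodendrocyte and border macrophage markers lay on both sides of 0. Their part in the shift of the members was not tested.

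At baseline, again no member passed these thresholds, beside 0.8% of all genes, and none had an unadjusted p-value under 0.05 in edgeR or in DESeq2, beside 1.04% of all genes in edgeR. Without wildtype PBS mouse 1 there was 1, *Tsr1*. With all mice, the log2FC values ran from -0.22 for *Nop56* to 0.28 for *Npm1* and the SE was 0.108 to 0.221. The number above 0 was 24 of 47 with all mice, 9 without KO PBS mouse 2, 15 and 16 without wildtype PBS mice 2 and 4, and 34 without wildtype PBS mouse 1. *Nop56*, singled out after its values were seen, was the 1 member whose groups did not overlap, beside 0.971% of all genes, with 44.7, 40.2, 39.1 and 40.7 CPM in wildtype and 29.3, 38, 36.5, 35.6 and 38 CPM in KO PBS libraries. All KO values were below all wildtype values by a narrow margin, and the log2FC was -0.22 ± 0.19 (edgeR adjusted p = 1).

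The interaction asks whether the LPS change itself differed between genotypes. No member passed an adjusted p-value of 0.05, nor did any gene tested (0%), and at an unadjusted p-value under 0.05 there was no member either, beside 0.961% of all genes. DESeq2 gave no member at either level. The values ran from -0.20 ± 0.21 for *Imp3* to 0.40 ± 0.22 for *Nhp2* (edgeR adjusted p = 1), with 42 of 47 above 0 and a median of 0.123, beside 51.6% and 0.00878 over all genes. Of the cell type markers, 7 of 7 for oligodendrocytes (median of 0.49), 6 of 7 for astrocytes (0.41) and 5 of 7 for neurons (0.30) were also above 0, while 12 of 14 for neutrophils and monocytes (-0.17) and all 5 tested for lymphocytes (-0.49) were below 0. For microglia, 6 of 9 were above 0 (0.05). None was called, and their part in the values was not tested. *Nhp2* had 9.7, 7.94, 7.49 and 8.32 CPM after PBS and 30.8, 23.4, 29.4, 31 and 25.8 CPM after LPS in wildtype mice, and 7.37, 7.95, 7.26, 6.81 and 7.45 CPM and 29.98, 34, 24.5, 27.4 and 47.1 CPM in KO mice. Its KO PBS values were on the low side of the wildtype ones and KO LPS mouse 5 was the highest of all. Without KO LPS mouse 3, *Nhp2* alone had an unadjusted p-value under 0.05 in edgeR, and without KO LPS mouse 5 there were 27 of 47 values above 0 and the median was 0.0231. The median was 0.0571 without KO LPS mouse 2 and 0.0309 without wildtype PBS mouse 1.

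**Figure D4:**
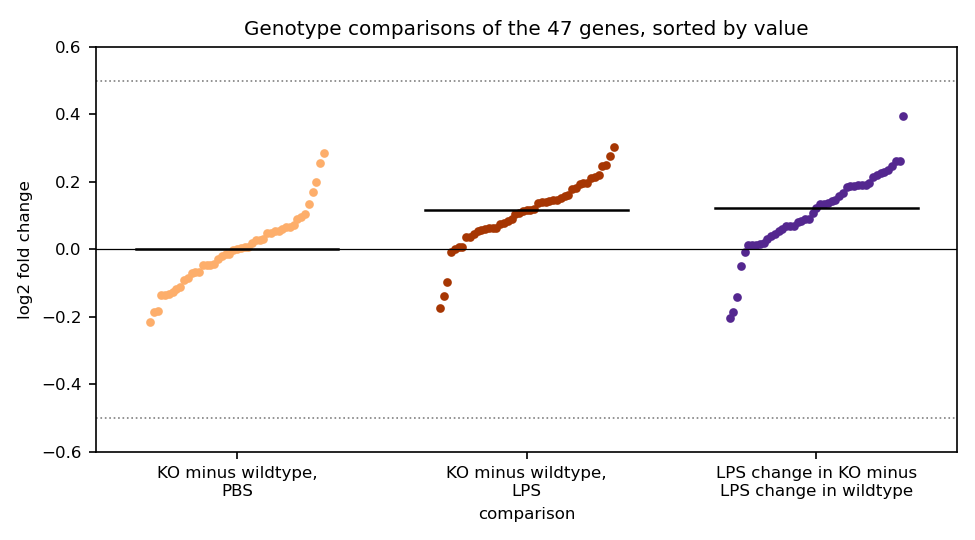
Log2 fold changes of the 47 genes (1 point each, sorted within a column, y axis) for KO against wildtype after PBS, KO against wildtype after LPS, and the LPS change in KO minus that in wildtype (x axis), with the median as a black line and dotted lines at 0.5 and -0.5. Points after PBS lie on both sides of 0, the medians of the other columns lie at 0.117 and 0.123, and no point reaches a dotted line.

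The KO LPS mice were less alike than the wildtype LPS mice. The mean log2 difference of the 47 genes from the wildtype PBS mean was 1.62 to 1.89 in the wildtype LPS libraries. In KO LPS mice 1 to 5 it was 1.69, 2.04, 1.51, 1.61 and 2.17, so that mice 2 and 5 lay above, and mice 3 and 4 below, every wildtype LPS library. The PBS libraries of both genotypes lay between -0.12 and 0.19. Mouse 5 was the highest of the 10 LPS libraries for 35 of the 47 genes and mouse 2 for 10, while mouse 3 was the lowest KO LPS library for 28 genes. The SD of log2 CPM was larger in KO LPS than in wildtype LPS mice for 47 of 47 genes, a count made after the values were seen, and for 73% of all genes. Leaving out any one KO LPS mouse left 43 to 47 genes. As the members move together in a library, these counts do not stand for 47 separate observations. In the same 5 KO LPS libraries the summed neutrophil and monocyte markers were 253, 372, 834, 684 and 501 CPM and the summed oligodendrocyte markers 11445, 1524, 4070, 1182 and 1752 CPM. The ribosomal RNA share of the counts was 1.03, 0.164, 0.218, 0.347 and 0.0567% in the same order, lowest in mice 5 and 2, beside 0.0389 to 0.0727% in wildtype LPS libraries. The summed microglia markers were 7905, 10665, 7826, 6491 and 9809 CPM, highest in mice 2 and 5, as the 47 genes were. The endothelial markers summed to 774, 415, 379, 416 and 74.1 CPM and the astrocyte markers to 5172, 1350, 2634, 1616 and 434 CPM, both lowest in mouse 5. The TMM factors of KO LPS mice 1 to 5 were 1.001, 0.923, 0.927, 1.025 and 0.879, lowest in mice 5 and 2. The part of all these measures in the members' levels was not tested.

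Related lists show how far the pattern reached beyond these genes. Their counts of calls after LPS stand beside 18.4% of all genes called higher and 17.4% lower in wildtype mice. In KO mice these shares were 20.1% and 19%. Of 48 other 60S assembly factors, 40 were called higher in wildtype and 41 in KO mice, with medians of 1.16 and 1.3, led by *Tma16* (2.47 ± 0.13, adjusted p = 3.12e-10) and *Ppan* (2.4 ± 0.18, adjusted p = 6.86e-09), both pre-60S factors. Of 38 other 40S assembly factors, 31 and 33 were called higher, with medians of 1.2 and 1.27, led by *Bysl* (2.16 ± 0.16) and *Wdr46* (2.1 ± 0.17). None of either list was called lower, and edgeR called no gene of either list between KO and wildtype mice. In KO LPS mice 1 to 5 the 60S list summed to 3272, 4303, 3314, 3428 and 4815 CPM, beside 3202.5 to 3893 CPM in wildtype LPS libraries. The 40S list summed to 2024, 2499, 1838.5, 1936 and 2641 CPM, beside 1968.6 to 2283 CPM. Mice 2 and 5 were the highest in both lists, as for the 47 genes.

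The other genes of RNA polymerase I and its initiation factors moved less evenly. In each genotype 7 of 13 were called higher and none lower, with medians of 0.62 and 0.65. The polymerase subunit *Polr1e* (2.24 ± 0.17) and *Taf1d* (1.35 ± 0.26), of the promoter selectivity complex, had the largest values. *Ubtf*, the upstream binding factor of the ribosomal DNA (0.21 ± 0.12), and the termination factor *Ttf1* (-0.07 ± 0.14) were not called. Of the RNA exosome, which trims the ends of ribosomal RNA precursors, 13 of 14 genes passed the filter, and *Exosc6* had 0 counts in every library. There 10 were called higher in wildtype and 9 in KO mice, with *Exosc2* (1.68 ± 0.14) and *Dis3* (1.44 ± 0.11) the largest.

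The 78 cytosolic ribosomal protein genes, the structural parts of the ribosome, had smaller median changes than the assembly factors. The ranges overlapped, and the difference between lists was not tested. In wildtype mice 46 and in KO mice 39 were called higher and none lower, with medians of 0.63 and 0.50, led by *Rps10* (1.75 ± 0.26) and *Rpl24* (1.62 ± 0.34). In KO against wildtype mice at baseline, 73 of the 78 were above 0 (median of 0.242). There 1 was called lower, beside 0.8% of all genes called in either direction. After LPS 62 were above 0 (median of 0.125, none called). In the interaction 68 were below 0 (median of -0.118, none called). The summed level was 10082, 13180, 9545, 5922 and 5880 CPM in KO PBS mice 1 to 5, and 5790 to 8767 CPM in wildtype PBS libraries. Many ribosomal protein genes have processed pseudogenes that can share reads with them, so single values are uncertain. With one mouse left out in turn, the KO count ranged from 20 to 52. It was 20 without KO PBS mouse 4 and 22 without KO PBS mouse 5.

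MYC acts with partners and is opposed by related repressors. Of 10 genes of this network tested besides *Myc*, 3 were called higher and 3 lower in wildtype mice, and 4 and 3 in KO mice. The paralog *Mycl* had the largest change, a fall (-4.06 ± 0.35 and -4.29 ± 0.35), and the repressor *Mxd1* followed, higher at 1.89 ± 0.24 and 1.83 ± 0.23. *Max*, the obligate partner of MYC (0.59 ± 0.10 and 0.63 ± 0.10), and *Mlx* (0.86 ± 0.14 and 0.80 ± 0.13) were called higher, and the repressors *Mxd4* (-0.96 ± 0.26 and -1.17 ± 0.25) and *Mxi1* (-0.93 ± 0.18 and -0.79 ± 0.18) lower. Among 15 genes known as MYC targets outside ribosome assembly, 12 were called higher in each genotype and none lower, with medians of 1.37 and 1.43, the transferrin receptor *Tfrc* (2.17 ± 0.28) and lactate dehydrogenase *Ldha* (2.1 ± 0.15) in front. The 12 proliferation markers did not share a direction. In wildtype mice 2 were called higher and 2 lower, near the shares over all genes of 18.4% and 17.4%. *Mcm7* (-0.84 ± 0.19) and *Mcm2* (-0.79 ± 0.22), subunits of the replicative helicase, were called lower, *Mki67* (0.72 ± 0.28) and *Top2a* (0.68 ± 0.15) higher, and the other 8 were not called in wildtype mice. In KO mice 2 were called higher and 4 lower, beside 20.1% and 19% of all genes, and 8 of the 12 were below 0.

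**Figure D5:**
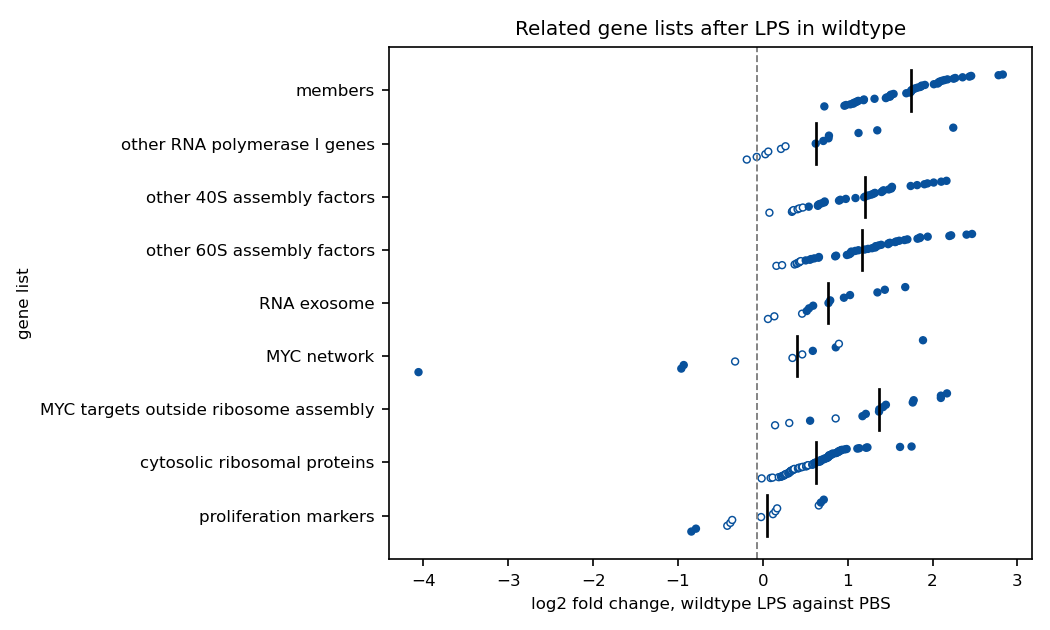
Log2 fold change of LPS against PBS in wildtype mice (x axis) for each tested gene of the 47 members and of 8 related lists (y axis), with filled points for genes called and open points for the others, a black line at the median of each list and a dashed line at the median over all genes (-0.06). The medians run from 1.75 for the members to 0.05 for the proliferation markers, and *Mycl* is the point near -4.

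Several members also host snoRNA genes, the guides of the same modification machinery, and these were looked at after the values were seen. The annotation places 21 snoRNA genes within 7 of the members on the same strand, in *Nop56* (5), *Nop58* (4), *Ncl*, *Gnl3* and *Wdr43* (3 each), *Tsr1* (2) and *Dkc1* (1). In GENCODE M39, 12 of the 21 share bases with an annotated exon of the host. Of these 12, 10 had 0 counts in every library and 2 had counts, while all 9 that share no exon bases had counts, so a count of 0 does not show that a snoRNA was absent. The filter was passed by 8. All 8 had a log2FC above 0 after LPS, with medians of 1.75 in wildtype and 1.73 in KO mice. The call was reached by 5 in wildtype and 7 in KO mice, beside the 18.4% and 20.1% of all genes given above. The library preparation is not made for RNAs this short, and reads of the snoRNA cannot be told apart from reads of the unspliced host transcript. Of the tested ones, 4 held exact copies of both boxes that name the class, and their sequences are shown for this, with box C (TGATGA) and box D (CTGA) in capitals, in DNA letters, 5′ to 3′, from GRCm39.
*Snord110* in *Nop56* (chr2:130117426-130117493, forward strand): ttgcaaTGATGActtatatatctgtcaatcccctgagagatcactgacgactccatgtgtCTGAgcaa
*Gm26287* in *Nop58* (chr1:59743417-59743497, forward strand): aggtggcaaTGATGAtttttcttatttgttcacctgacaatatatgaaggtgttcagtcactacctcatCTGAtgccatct
*Snord92* in *Wdr43* (chr17:71938276-71938360, forward strand): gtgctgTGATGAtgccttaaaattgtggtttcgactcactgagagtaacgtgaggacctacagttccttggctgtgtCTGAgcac
*Gm22858* in *Wdr43* (chr17:71948579-71948654, forward strand): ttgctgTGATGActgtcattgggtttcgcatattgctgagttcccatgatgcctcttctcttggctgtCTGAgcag
*Snord92* had 2, 2, 5 and 9 counts in wildtype PBS and 23, 3, 13, 16 and 19 counts in wildtype LPS libraries, and 1, 6, 10, 6 and 6 and 16, 21, 13, 18 and 15 counts in the KO. The KO groups did not overlap, while wildtype LPS mouse 2 lay among the PBS mice, and the log2FC was 1.83 ± 0.57 and 1.7 ± 0.51. *Snord110* had 6, 1, 0 and 2 and 4, 4, 19, 11 and 3 counts in wildtype and 1, 5, 1, 2 and 2 and 6, 14, 10, 11 and 10 counts in KO mice, with a log2FC of 1.96 ± 0.66 and 2.35 ± 0.61. The largest change was that of *Gm22771*, in *Tsr1*, with 5, 2, 2 and 2 and 22, 17, 25, 15 and 9 counts in wildtype and 1, 5, 0, 1 and 2 and 13, 17, 20, 18 and 16 counts in KO mice. Its LPS and PBS libraries did not overlap in either genotype, and its log2FC was 2.76 ± 0.48 and 3.34 ± 0.46.

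Some members share exon bases with a gene on the other strand. The kit keeps strand, but the strand setting of the counting is not given in the sources used here, so their reads may be mixed. An overlap with a gene that had counts covered at least 10% of the exon bases in 11 members. Of 12 such partner genes 11 were tested, of which 2 were called higher, 4 lower and 5 not called after LPS in wildtype mice, and 3, 3 and 5 in KO mice. *Rrs1* shared 39.4% with *2610203C22Rik*, which moved the other way after LPS (log2FC of -2.48 ± 0.30 in wildtype), and *Tsr1* shared 34.2% with *Srr* (-0.51 ± 0.18). The partner of *Nhp2*, *Rmnd5b*, covered 25.1% of it and had a log2FC of 0.02 ± 0.15, and *Mpp1*, which covered 20.1% of *Dkc1*, one of 0.24 ± 0.13. Higher along with their member were *Ddx42*, which covered 15.8% of *Ftsj3* and had 118% of its counts (0.52 ± 0.09), and *Hsf1*, which covered 12.8% of *Bop1* (0.59 ± 0.14). *2810036E18Rik*, over 14% of *Nop56*, was called higher in KO mice (log2FC of 0.90 in wildtype and 2.24 in KO) and had 0.953% of the counts of *Nop56*. The part of these reads in the members' values was not tested.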

How the data were processed

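RNA-sequencing of MACS-isolated CD11b+ brain cells was available for 19 male mice. Per the labels and the paper's methods, total RNA was depleted of ribosomal RNA, made into stranded libraries and sequenced as read pairs (75 bp each). Cutadapt 0.17.4 and STAR 2.7.9a served for trimming, alignment and counting, on GRCm39 with Ensembl 108. The authors deposited these counts unnormalized, 1 column a mouse. Groups came from the labels, and each library was used as 1 mouse because the labels number them separately. If libraries shared an animal, the p-values would measure technical spread. The counts of any 2 libraries of a group differed by at least 6.60 in chi-square per degree of freedom, so none was a copy of another.

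The counts went into edgeR 4.0.16 in R 4.3.3 (filterByExpr, minimum count 10 and minimum total count 15, TMM, quasi-likelihood test, 4 groups in one fit) and adjusted with the Benjamini-Hochberg method over all 18739 genes tested. A call needed an adjusted p-value under 0.05 and a |log2FC| no smaller than 0.5 for LPS against PBS, the same fold with an unadjusted p-value under 0.05 for KO against wildtype, and for the interaction an adjusted p-value under 0.05 alone. The SE is |log2FC| over the root of the F statistic, and log2 CPM used a prior count of 2. GENCODE M39 named 56236 of the 56980 genes and gave the exon lengths and coordinates, and 1 of 10 microglia markers (*Fcrls*) had no match.

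The 47 genes and all gene lists were chosen with earlier results of these data known. The naming rule gives values in every library for *Myc* and for the genes with the largest and smallest wildtype LPS change in each of 7 roles, and from each related list the 2 genes with the largest change among those called. *Ncl*, *Nop56*, *Nhp2*, the snoRNAs, genes named by a left-out mouse or on the opposite strand, and further named genes of the other lists were added after their values were seen. Not every single-gene result is reported here. The scripts were tested on simulated counts. Alternatives were other filters, RLE, upper-quartile or no normalization, ribosomal RNA and mitochondrial genes left out, DESeq2 1.42.0, fits of the 2 groups compared, a replicate block, the number in the library label as a covariate, other thresholds and motifs, and fits without one mouse.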

Additional observations from a re-analysis of the deposited data

Results flagged for a closer look

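In each group of 4 or 5 libraries, a member was marked where its highest or lowest log2 CPM stood apart from the rest, that is, where the gap to the nearest library, as a share of the group's range, passed Dixon's 95% limit. This happened in 10 of 188 groups (5.32%), and chance alone gives about 1 in 20. Wildtype LPS mouse 3 was high for *Polr1b* (share of 0.827) and *Ddx21* (0.738), and wildtype LPS mouse 5 was low for *Nop16* (0.809). KO PBS mouse 1 was low for *Nop56* (0.749), *Utp20* (0.785) and *Nop14* (0.756), and KO PBS mouse 2 was high for *Npm1* (0.711) and *Imp3* (0.909). Wildtype PBS mouse 1 was high for *Noc4l* (0.835) and *Ddx18* (0.849). No KO LPS library was marked. The rule sees only the gap between the most extreme library and its neighbour. A group with more than 1 high library, such as KO LPS with mice 2 and 5, can therefore go unmarked.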

How the results depend on the processing

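The 47 genes were called higher after LPS in wildtype mice under all 30 alternatives, and 46 or 47 in KO mice. *Imp3* was the gene lost in the KO, where its log2FC of 0.52 fell below the fold threshold under 9 alternatives, to between 0.41 (library totals) and 0.50. No LPS change of a member changed sign. The median log2FC ranged from 1.65 to 1.82 in wildtype and from 1.77 to 1.98 in KO mice, and no alternative called a member between KO and wildtype mice. With each mouse left out in turn, 0 to 1 members had an unadjusted p-value under 0.05 in the interaction. The baseline median between genotypes, 0.00236, ranged from -0.0430 to 0.0738, on both sides of 0. Against TMM, library totals moved the median of all genes after LPS from -0.06 to -0.15 in wildtype and from -0.01 to -0.12 in KO mice, and upper-quartile scaling to -0.16 and -0.11. Same-numbered mice are different animals, and the correlation of their deviations was from -0.04 to 0.58 for LPS in wildtype and from 0.03 to 0.54 in KO mice, with 2 of 4 and 3 of 5 libraries closest to their own number. With the replicate block, 47 members were again called higher in both genotypes, and the medians were 1.74 and 1.90. E-box counts with CANNTG (26 of 40 genes) and CACGCG (10) are other motifs, not tests of CACGTG (11). Depth did not limit the members, all of which had counts in every library.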
